A study of Homo sapiens with 6 samples.

Results

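Chromosome 5 held 2550 of the 32760 islands that the authors called in a ChIP-seq of NFATc2 in THP-1 cells, or 7.78% of the list. They were chosen by their chromosome from islands that were themselves selected on measured values, the authors' false discovery rate (FDR) below 0.05 for IP over input, so that number, fold and reads are given here as a description and without a test. THP-1 is a human monocytic cell line from acute myeloid leukaemia (AML) that carries the MLL-AF9 fusion. Its chromatin was fixed with 1% formaldehyde for 10 min, sonicated and precipitated from 11000000 cells per IP with an antibody to NFATc2. There were 3 libraries of the group NFATc2 IP and 3 of the group Input DNA, which is sheared chromatin without precipitation, and all cells were untreated. The authors called the islands on all libraries together, so the list holds 1 value per island for the pooled reads and none per replicate.

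NFATc2 is a transcription factor that enters the nucleus when the phosphatase calcineurin removes its phosphates, and it binds DNA through a Rel homology domain. Loss of the long arm of chromosome 5 recurs in myeloid neoplasms, and genes with known roles in leukaemia lie on this chromosome, such as NPM1, a nucleolar protein often mutated in AML, and NSD1, a histone methyltransferase that is a fusion partner in AML. Positions are given in hg19 and start at base 1. Islands were not matched to genes and no sequence is shown, because the genome and annotation used here are of GRCh38 and positions were not carried between builds.

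Islands lay along the whole of chromosome 5, from chr5:62201-65800, with a log2 fold change of IP over input of 0.29 (95% counting interval -0.05 to 0.62), to position 180671000. They covered 14149 kb, or 7.79% of the chromosome's length. The median island was 4800 bp wide, with quartiles of 3800 and 6400 bp and a range from 400 to 65800 bp. The median fold of IP over input, with the input scaled to the IP depth, was 0.41 on the log2 scale, with quartiles of 0.30 and 0.54, which means that most islands were only slightly richer in IP reads than in input reads. The lowest log2 fold change was 0.07 and the highest 1.86. Behind a median island stood 144 IP reads and 191 input reads, worked out from its fold and p. With this depth the median 95% counting interval of an island was 0.64 wide on the log2 scale. Such intervals cover the counting of pooled reads only, not the spread between biological replicates. The island nearest to the FDR limit, chr5:26327801-26331400, was at 0.24 on the log2 scale (interval -0.09 to 0.56).

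Among the 22 autosomes, chromosome 5 ranked 5 from the top in islands per Mb, with 14.0 against a median of 7.83 over the other 21 (range 0.53 to 30.6). It held 1.79 times that median. Chromosome size was taken as the total length in GRCh38, used as a total only. In width and fold its islands lay in the middle of the autosomes. The median width of 4800 bp was also the median of the other autosomes, and the median log2 fold change of 0.41 compared with 0.42 (range 0.33 to 0.60), below that of 14 other autosomes. Few of its bins of 1 Mb were empty, with no island in 5 of 181 (2.76%), against a median of 20.3% over the other autosomes (range 1.01 to 66.0). Chromosomes 3 and 4 had a lower share. Bins without assembled sequence were not masked, and their part in these shares was not tested. On chromosomes 13, 14 and 15, for example, islands spanned 96.0, 88.2 and 82.4 Mb of 114, 107 and 102 Mb. Bins with at least 30 islands were less frequent on chromosome 5 than on the other autosomes pooled, with 15 of 181 (8.29%) against 309 of 2691 (11.5%). These are ranks of 1 chromosome and were not tested.

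Along chromosome 5 the number of islands was uneven. Blocks of even island number were placed by Poisson likelihood over bins of 1 Mb, which gave 5 blocks. The method returns flat blocks only, so their rates are means over bins. From the short-arm end to 7 Mb there were 96 islands, at 13.7 per Mb. From 7 to 32 Mb there were 830 islands, at 33.2 per Mb. This stretch, called the dense short-arm block here, made up 13.8% of the length of the chromosome but held 32.5% of its islands and 39.7% of the bases they covered. From 32 to 85 Mb, across the centromere, there were 567 islands at 10.7 per Mb. The number rose again between 85 and 131 Mb, with 775 islands at 16.8 per Mb, and was lowest from 131 Mb to the end, with 282 islands at 5.68 per Mb. At FDR below 0.001 the dense block held 11.0 islands per Mb and the fourth block 9.51, so that the ratio between them fell from 1.97 to 1.16. The single bin with most islands, from 21 to 22 Mb, held 52 of them, while the bin from 17 to 18 Mb in the same dense block held 13. On the other autosomes the densest block had a median of 18.6 islands per Mb and at most 44.8, and the sparsest had at most 2.33. Stretches without assembled sequence were not masked when blocks were placed, and their part in the rates of the sparsest blocks was not tested.

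**Figure D1:**
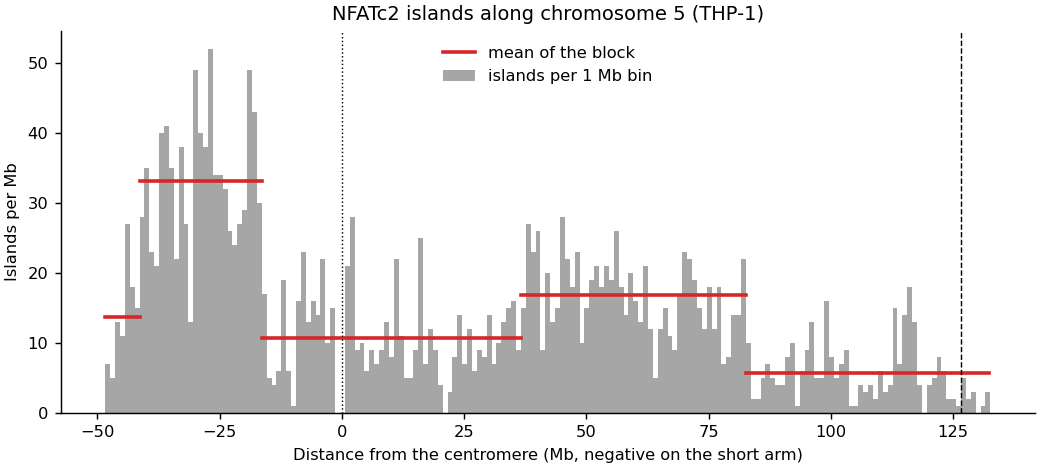
Number of islands per bin of 1 Mb (grey bars, y axis) along chromosome 5 by distance from the centromere in Mb (x axis), with the mean of each of the 5 blocks as a red line. The dotted line marks the centromere and the dashed line the start of the distal part at 175 Mb, and the dense block of the short arm stands at 33.2 islands per Mb against 5.68 in the last block.

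The arms, divided at 48.4 Mb, differed in the same way. The short arm took up 26.8% of the length and held 1113 islands, or 43.6% of them (exact binomial 95% interval 41.7 to 45.6, which takes islands as independent, and neighbouring islands are not). The long arm held 1437 islands (56.4%). This is 23.0 islands per Mb on the short arm against 10.9 on the long arm, and covered shares of 14.5% and 5.40%. The dense block held 830 of the 1113 islands of the short arm. The blocks on either side of it were at 13.7 and 10.7 islands per Mb. Islands of the short arm had a median log2 fold change of 0.34, with quartiles of 0.25 and 0.45. On the long arm the median was 0.46, with quartiles of 0.35 and 0.60, so the ranges of single islands overlapped widely. The input was denser on the short arm too, with a median of 47.5 input reads per kb against 38.1.

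Within the dense short-arm block the islands were wider and weaker than elsewhere on chromosome 5. Their median width was 5200 bp with an upper quartile of 8200 bp, and their median log2 fold change was 0.32, against 4600 bp and 0.45 in the 1720 islands outside it. Chromosome 5 had 50 islands of 15 kb or more (1.96%, against 2.20% of the whole list). All 50 lay on the short arm, and 49 of them lay in this block (5.90% of its islands). Such shares were also found elsewhere, with 4.63%, 5.07% and 4.70% over the whole of chromosomes 1, 6 and 9. The median log2 fold changes there were 0.34, 0.33 and 0.34. The widest island of chromosome 5, chr5:21514201-21580000, spanned 65800 bp. It also had the most reads, with 3820 IP reads against 6477 input reads, and the lowest log2 fold change of the chromosome (0.07, interval 0.01 to 0.13). The next widest were chr5:18907201-18943800 with 36600 bp and a log2 fold change of 0.10 (-0.01 to 0.20), and chr5:23529201-23561000 with 31800 bp and 0.12 (0.01 to 0.23). These wide islands thus came from many reads and a small excess of IP over input.

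Reads of both kinds of library were denser in the islands of this block. Its islands held a median of 49.0 input reads and 34.4 IP reads per kb, against 38.5 and 29.8 in the islands of the rest of the chromosome. The ratios were 1.27 for input and 1.16 for IP. Because a low fold goes with many input reads by construction, the comparison was repeated in islands of like fold, a choice made after the values were seen. Among islands with a log2 fold change of 0.3 to 0.5, the 332 in the block held 47.8 input reads per kb (quartiles 44.1 and 51.2) and the 782 others 39.4 (37.1 and 42.2). By block, from the short-arm end on, these medians at like fold were 44.7, 47.8, 39.3, 39.2 and 38.6. The 2 blocks before 32 Mb were thus higher than the 3 after it.

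The fall in island number and the fall in input density lay close together. Island numbers per bin of 1 Mb were 49, 43 and 30 from 29 to 32 Mb, then 17, 5 and 4 from 32 to 35 Mb. The median input per kb in the same bins was 49.5, 49.1 and 48.1, then 48.7, 41.8 and 39.7 reads. Island number thus fell over several bins, and its fall from 17 to 5 lay at the same bin edge as the fall in input density, where bins held few islands. Input reads could be worked out only where an island was called, and the part of input density in the island numbers was not tested. Of the 18 other autosomes with enough islands on both sides, 1 had a higher ratio of input per kb in its densest block to that elsewhere (chromosome 8, 1.29), and the median ratio was 1.01. For IP reads per kb, the ratio of 1.16 on chromosome 5 was above those of all 18, which reached at most 1.13.

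**Figure D2:**
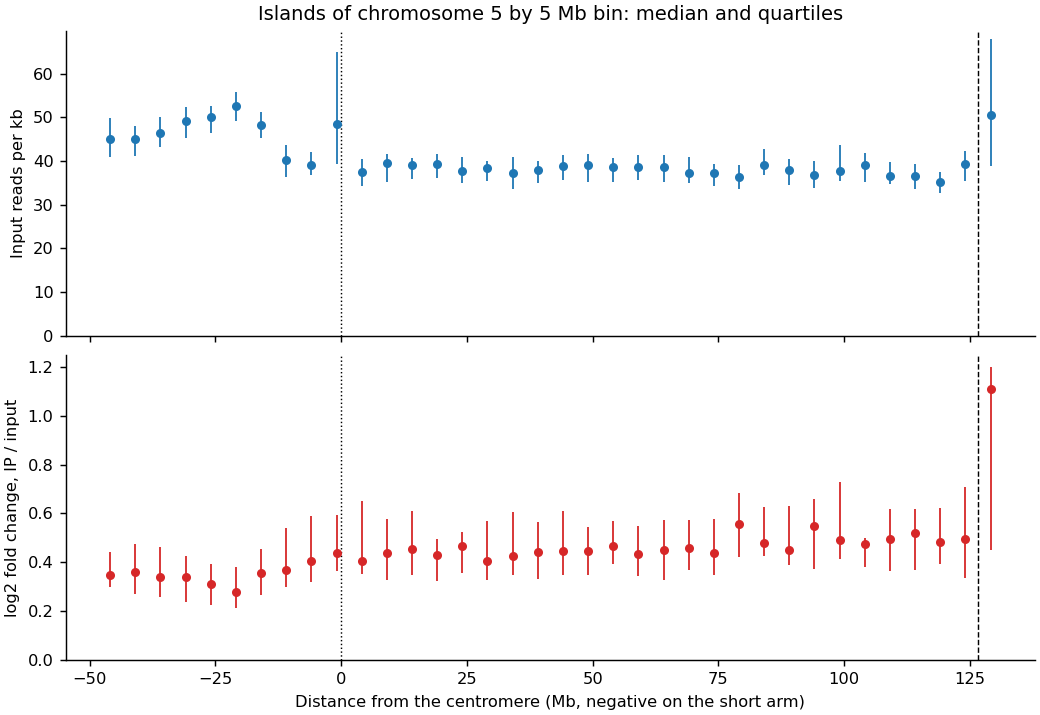
Median input reads per kb (upper panel) and median log2 fold change of IP over input (lower panel) of the islands in each of the 36 bins of 5 Mb with at least 10 islands, by distance from the centromere in Mb, with vertical lines for the quartiles over islands. The input is higher over most of the short arm, where the fold is lower, and the last bin has the highest fold, with a median of 1.11 over 11 islands.

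Across those 36 bins, the number of islands fell as the median log2 fold change rose (Spearman rho -0.67) and rose weakly with the median input per kb (rho 0.31). On 19 other autosomes with at least 6 such bins the same values had medians of -0.39 and 0.32. Bins share the pooled libraries and neighbours are alike, so these are descriptions. Across the 2550 islands, width and log2 fold change had a rho of -0.52. By fold, 344 islands had a log2 fold change of 0.25 or less and a median width of 8000 bp, 1398 lay above 0.25 and up to 0.5 with 4800 bp, 625 above 0.5 and up to 0.75 with 4200 bp, and 135 above 0.75 and up to 1 with 3400 bp. Width thus narrowed from class to class, down to 2400 bp in the 48 islands above 1. An island enters the list only if its reads carry the excess past the FDR limit, and this limit sets a lower edge of fold that falls with width. The part of this limit in the relation of width and fold was not tested.

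**Figure D3:**
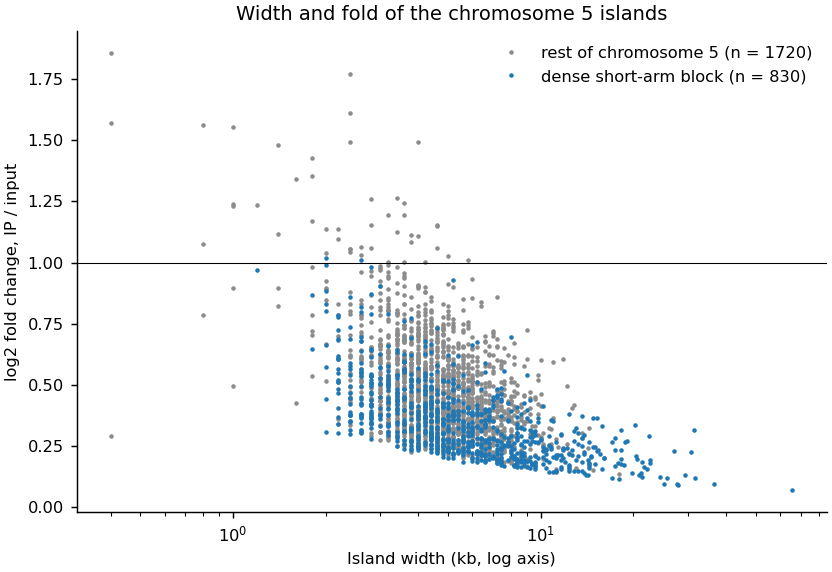
Fold of IP over input on the log2 scale (y axis) against island width in kb (x axis, log axis) for the islands of chromosome 5, with the 830 islands of the dense short-arm block in blue and the other 1720 in grey. Wide islands have low folds, and those of 15 kb or more reach at most 0.36.

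Islands were also clustered at a finer scale. The median gap between neighbours was 28.2 kb, against a median of 37.7 kb over the other autosomes. With islands less than 50 kb apart joined, there were 862 clusters, 394 of them a single island. The 45 clusters of at least 10 islands held 738 islands (28.9%), and 31 of these clusters lay within the dense short-arm block. The largest, chr5:22546001-23444200, had 39 islands over 898 kb, with a median of 0.34 on the log2 scale. It was followed by chr5:28868201-29270200 with 30 islands, which covered 52.1% of its span. With gaps of up to 100 kb joined, 1 cluster of 287 islands ran over 7282 kb, from 17797001 to 25078800.

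The longest stretch with no island was 3.01 Mb, chr5:46399801-49405600, which holds the centromere. The second was chr5:68297601-70669800, of 2.37 Mb on the long arm, and the third was chr5:177581001-179459600, of 1.88 Mb near the end. Whether reads can map to these stretches was not tested, so they may lack islands for want of mapped reads. Islands in blacklisted regions, which the paper removed, are still included here. Islands crowded on both sides of the centromere stretch. Within 200 kb before it lay 11 islands with a median of 58.1 input reads per kb, and within 200 kb after it lay 14 islands with 77.7, against 41.1 over the chromosome. The last island before it, chr5:46390201-46399800, was at 0.44 on the log2 scale (0.27 to 0.62). The first after it, chr5:49405601-49406000, was 400 bp wide and held 169 IP reads and 246 input reads (log2 fold change 0.29, interval -0.00 to 0.58). These islands had reads in plenty but no log2 fold change above 1, and the highest of the 25 was 0.90. After the widest island, those with most IP reads on the chromosome were here, chr5:49433001-49441800 with 1520 and chr5:46318601-46328200 with 1341, at log2 fold changes of 0.35 and 0.45.

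The paper kept islands with a log2 fold change above 1. On chromosome 5 there were 48 such islands (1.88%), where 1.58% of all islands in the list passed. With the lower 95% counting bound required to be above 1, 10 of the 2550 were left, against 60 of the 32760 in the whole list (0.183%). Above a log2 fold change of 1.5 there were 6 of the 2550, against 58 of the 32760 (0.177%). The fold is part of what chose the islands, so nothing is read from these shares. Those just above the threshold, chr5:39186601-39189800 and chr5:102330401-102334600, both had 1.00 (intervals 0.57 to 1.43 and 0.62 to 1.38), and the one just below it, chr5:16715801-16717800, had 0.99 (0.53 to 1.45).

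By count, these stronger islands were placed differently from the bulk. Blocks were cut by island number and fold is part of what chose the islands, so this is a description. The long arm had 42 of the 48 (87.5%) and the short arm 6. The first block, with 96 islands, had none of them and the dense short-arm block, with 830 islands, had 2 (0.24%), while the last block, with 282 islands, had 20 (7.09%). Per 10 Mb this was 0.80 in the dense block, 1.89 and 3.48 in the blocks that followed and 4.03 in the last. Of the islands with a log2 fold change of 0.25 or less, 70.9% lay in the dense block. The strongest island of the short arm, chr5:43854201-43856600, lay outside that block and had 90 IP reads against 47 input reads (1.77, interval 1.25 to 2.31).

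Narrow and wider islands among these 48 differed in read density. A narrow island can pass the FDR limit only with many reads per kb. The part of this limit in the difference was not tested. The 41 that were wider than 1000 bp had a median width of 2600 bp, 37.9 IP reads and 30.8 input reads per kb and a median log2 fold change of 1.12. The 7 of 1000 bp or less had 148 IP reads and 72.5 input reads per kb and a median of 1.56. Chromosome 5 had 11 islands of 1000 bp or less in all (0.43%, against 0.49% of the whole list), every one on the long arm. Of the 4 that did not pass a log2 fold change of 1, 3 lay within 200 kb after the centromere stretch. Between neighbouring stronger islands the median gap was 2.24 Mb, and 12 of the 47 gaps were under 1 Mb. The closest were 3 islands within 12.4 kb, chr5:149781201-149793600, with log2 fold changes of 1.34, 1.48 and 1.06. They held 171, 221 and 414 IP reads against 120, 141 and 353 input reads.

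**Figure D4:**
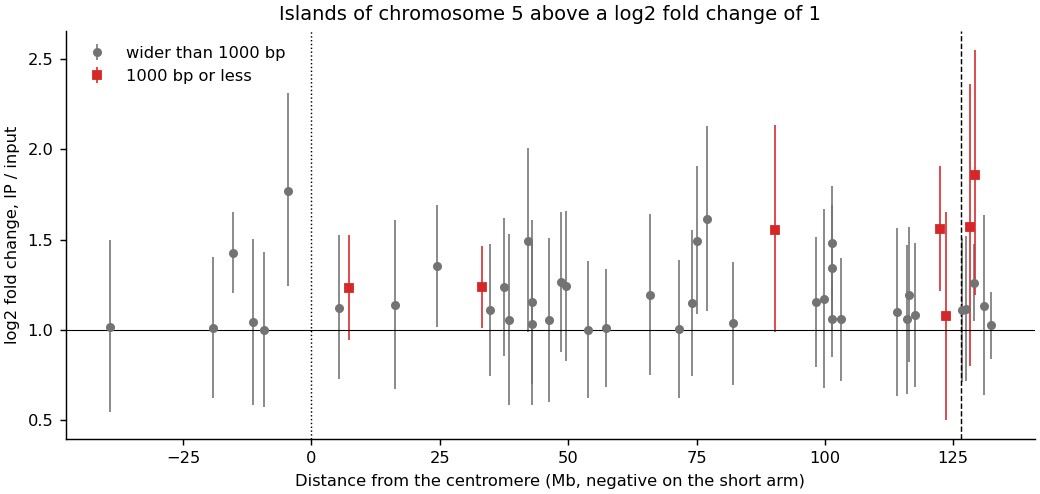
Fold of IP over input on the log2 scale (y axis) with the 95% counting interval (vertical lines) of the 48 islands above 1, by distance from the centromere in Mb (x axis), with red squares for islands of 1000 bp or less and grey circles for wider ones. Of the 48 islands, 42 lie on the long arm, and 7 lie beyond the dashed line at 175 Mb.

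The distal part, from 175 Mb to the last island, held fewer islands, and a larger share of strong ones, than any of the 30 other windows of its length laid along chromosome 5, which held 15 to 204 islands. Its 14 islands were 0.55% of those on the chromosome in 3.14% of its length, at 2.47 per Mb, and they covered 50.6 kb. Of these 14, 7 had a log2 fold change above 1, against 41 of the 2536 islands before 175 Mb (1.62%). The counting intervals of most of these 7 reached below 1. In the 5 Mb before it there were 19 islands, 2 of them above 1. The median log2 fold change over the 14 was 0.81.

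The strongest island of chromosome 5 lay there, chr5:177580601-177581000. It was 400 bp wide, with 59 IP reads against 29 input reads (1.86, interval 1.19 to 2.55). Another of 400 bp, chr5:176730601-176731000, had 40 IP reads and 24 input reads (1.57, interval 0.80 to 2.36). A wider one, chr5:177480401-177483200, had 431 IP reads against 320 (1.26, interval 1.05 to 1.47). These 3 lay within 1 Mb of each other, just before the 1.88 Mb stretch without islands. The other 4 were weaker, and their intervals all reached below 1. They included chr5:175096801-175100800 (1.11, interval 0.71 to 1.51) and chr5:175815401-175816800 (1.12, interval 0.72 to 1.52). The remaining ones were chr5:179459601-179461600 (1.14, interval 0.64 to 1.63) and the last island of the chromosome, chr5:180666001-180671000 (1.03, interval 0.84 to 1.21). Of these 4, the last had most reads, with 508 IP reads and 444 input reads. The 7 islands at or below 1 ranged from 0.21 to 0.60 and had a median width of 4800 bp.

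The 7 stronger distal islands had a median of 68.6 input reads per kb, against 41.7 in the 7 weaker ones and 32.2 over all 48 stronger islands. They ranged from 24.8 in chr5:175096801-175100800 and 32.0 in chr5:179459601-179461600 to 114 in chr5:177480401-177483200, so the 2 groups overlapped. Windows of the same length of 5.67 Mb were laid over the autosomes from each last island back. Of the 492 other windows, 161 held no more islands than the distal part, and none held as many as 7 above 1, the most being 6. By share above 1, however, 18 of these windows equalled or exceeded it, each with at most 5 islands. Of the 18, 3 were the last window of a chromosome. The median log2 fold change was as high or higher in 24 of the 473 windows with an island. The last windows of the 21 other autosomes held a median of 12 islands (range 1 to 102) and at most 4 above 1. The median over all 492 windows was 44 islands, so a low number was common in last windows, though not in all. Windows at short-arm ends were not set apart. The boundary at 175 Mb was set with these data known, so this rank is a description.

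In the 5 Mb before the distal part, chr5:170814201-170815000 was another narrow and strong island, of 800 bp with 189 IP reads against 114 input reads (1.56, interval 1.22 to 1.91). Together with chr5:125467001-125469400 on the middle of the long arm (1.61, interval 1.11 to 2.13, from 91 IP reads and 53 input reads) it completes the 5 islands of highest fold on chromosome 5. At this depth the order of these 5 was not detectable, since their intervals overlap.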

How the data were processed

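According to the notes of the submitters, which give no settings, the build was hg19 and the tools were BWA 0.7.17.1 and SAMtools 1.3.1, with Trimmomatic 0.36.5 and SICER 0.0.52 also listed. The authors called islands with epic2 on 3 NFATc2 IP against 3 Input DNA libraries together. The deposited list has no header. The authors' log2 fold change per island compares IP reads with input reads scaled to the IP depth. The −log10 p-value and −log10 FDR deposited beside it come from the caller's Poisson test. In each of the 32760 islands the deposited score equals 100 times the log2 fold change with decimals dropped. Starts lie in steps of 200 bp, and the smallest gap between islands is 800 bp. Removal of peaks in blacklisted regions, which the paper describes, was not applied here.

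IP reads per island were solved from fold and p under a Poisson model, and input reads from the fold. The latter came out whole, to a tolerance of 0.02, in 32750 islands, and in all 2550 on chromosome 5, with a scaling factor of 0.562, so the pooled input was 1.78 times as deep as the pooled IP. Intervals are exact Clopper-Pearson intervals at 95%. An island belongs to the arm, bin or block of its midpoint. Blocks were placed by exact dynamic programming with a penalty of 3 times the log of the number of bins per step. Both methods were tested on simulated data. Named islands were the 5 of highest fold, the 3 widest, the 3 with most IP reads, the highest fold of each arm and of the distal part, the nearest to the centromere on each side, and the first and last. Those nearest to the fold and FDR limits, the other distal islands above 1 and the group of 3 were named after their values were seen. Members, arms, the distal boundary and all choices were made with earlier results of these data known. Alternatives were stricter FDR and fold limits, other bins, penalties, gaps and boundaries, merged islands and covered bases. Analyses ran in Python 3.11.15 with pandas 2.3.3, numpy 2.4.6 and scipy 1.17.1, and plots in matplotlib 3.10.9.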

Additional observations from a re-analysis of the deposited data

How the results depend on the processing

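Bins of 0.5 Mb, a doubled penalty and FDR below 0.001 also gave 5 blocks with an edge at 32 Mb. At FDR below 0.001, though, the dense block began at 4 Mb in place of 7 Mb, and it held 11.0 islands per Mb against 9.51 in the fourth block, a ratio of 1.16 in place of 1.97, while the first block held 6 islands in place of 96. The number of 2550 islands became 1205 at FDR below 0.001 and 48 above a log2 fold change of 1, and the 48 became 6 above 1.5 and 10 by the lower counting bound. Clusters numbered 1552 with gaps under 20 kb and 424 with gaps under 100 kb, against 862. The ratio of islands per Mb to the median of the other autosomes, 1.79, was 1.59 with the span of islands as size and 1.64 at FDR below 0.001. The long arm's share of 56.4% was 50.5% by covered bases, 66.7% at FDR below 0.001 and 87.5% above a log2 fold change of 1. The distal share of 0.55% was 1.29% with the boundary 5 Mb nearer to the centromere. The median log2 fold change of 0.41 was 0.55 at FDR below 0.001, which fewer weak islands pass. The input ratio of 1.27 between the dense short-arm block and the rest was 1.21 at like fold and 1.26 in islands of 4000 to 6000 bp, both added after the data were seen. In the other 9 of 24 alternatives, shares and medians moved by less than their counting interval and counts by less than 1.5 times. No paired analysis was possible because islands were called on pooled reads, which also means that leaving out single replicates could not be done. Depth per library is unknown, and GC content, mappability and copy number were not tested.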
